A study of Mus musculus with 9 samples.

Results

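The cytochrome P450 family was examined in RNA-seq libraries of sorted mouse intestinal cells. Members were taken by name alone: 105 of the 24421 gene symbols in the tables begin with Cyp and a digit, 4 of these were removed as pseudogenes, and Cyp51, Cyp4a10, Cyp4a14 and Cyp2w1 were left out. That gave 97 members, of which 61 had at least 1 read in some library and 36 had 0 reads in all of them. A member is called expressed here if it was kept by the filter on low counts that edgeR applies before its test, and 23 of the 97 were. The other 38 with a read were too low to be tested.

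All mice were C57BL/6 at postnatal day 6, with no treatment listed. Intestinal cells were sorted by surface EphB2, a receptor that crypt cells carry and that declines towards the villus. The WT mice had intact Nfkbia, and the KO mice lacked its product IκBα, which keeps NF-κB inactive in the cytoplasm. There were 2 libraries of WT EphB2-positive cells, 2 of WT EphB2-negative cells, 3 of KO EphB2-positive cells and 2 of KO EphB2-negative cells. The allele, the cells in which it was lost and whether animals were pooled are not given in the labels. It is not stated that libraries of a group represent different animals, and p-values measure only the spread between these samples, which may be technical.

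P450 enzymes are heme proteins that insert an oxygen atom into lipophilic substrates, with electrons passed on by P450 oxidoreductase in the endoplasmic reticulum or by ferredoxin in mitochondria. Families named with the lowest numbers mostly act on drugs, dietary compounds and fatty acids, and others make or break down bile acids, steroid hormones, vitamin D and retinoic acid. In the gut they are best known from differentiated enterocytes, where they meet food compounds and drugs first, and nuclear receptors such as PXR, CAR and PPARα control many of the genes.

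The libraries held 1503972 to 2074076 reads in genes, of which 338 to 2694, or 0.022 to 0.138%, fell on P450 members. In a single library 3 reads correspond to 1.37 to 2 CPM (reads scaled by library size after TMM normalisation), and the intervals and floors below cover counting error only. Nfkbia had 47 to 163 reads in the WT libraries and 0 in each KO library. All 11 epithelial markers had reads in every library. The WT EphB2-negative libraries differed most from each other, with a chi-square per degree of freedom of 24.2, where the other 5 pairs of replicates had 1.93 to 4.32. Replicate 1 held less of the 14 absorptive enterocyte markers, at 12240 against 30030 summed CPM, and more of the 10 crypt stem cell markers, at 2448 against 617 summed CPM. Replicate 2 held more of the 8 goblet cell markers, at 24500 against 3069 summed CPM, where the KO EphB2-negative libraries had 6346 and 8793. Ephb2, which encodes the sort marker, stood at 125 and 66.8 CPM in WT EphB2-negative and 142 and 160 CPM in WT EphB2-positive libraries. In KO it stood at 30.7 and 34.4 CPM in EphB2-negative and 182, 183 and 171 CPM in EphB2-positive libraries. The sorts were thus less far apart in WT than in KO, and the part of sort purity in the comparisons was not tested. With 2 libraries it cannot be told which is unlike the group, and counts are given without each where they change.

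Few P450 genes carried most of the signal in this neonatal epithelium. The summed level of all members was 480 and 555 CPM in the WT EphB2-positive libraries, and 226, 220 and 219.5 CPM in their KO counterparts. WT EphB2-negative libraries held 868 and 1304 CPM, and KO EphB2-negative libraries 812 and 1096 CPM. The KO EphB2-positive libraries were thus the lowest of all, and the EphB2-negative groups overlapped. Cyp2j6, of a subfamily that epoxidizes arachidonic acid, took 28.1% of P450 reads in WT EphB2-positive, 25.2% in WT EphB2-negative and 24.3% in KO EphB2-positive cells. In KO EphB2-negative cells the first place went to Cyp3a13, a drug- and steroid-oxidizing enzyme of the gut, with 30%. These shares depend on transcript length as well as level. As bulk libraries hold cells of several types, fewer cells of a type and less RNA per cell cannot be told apart.

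**Figure D1:**
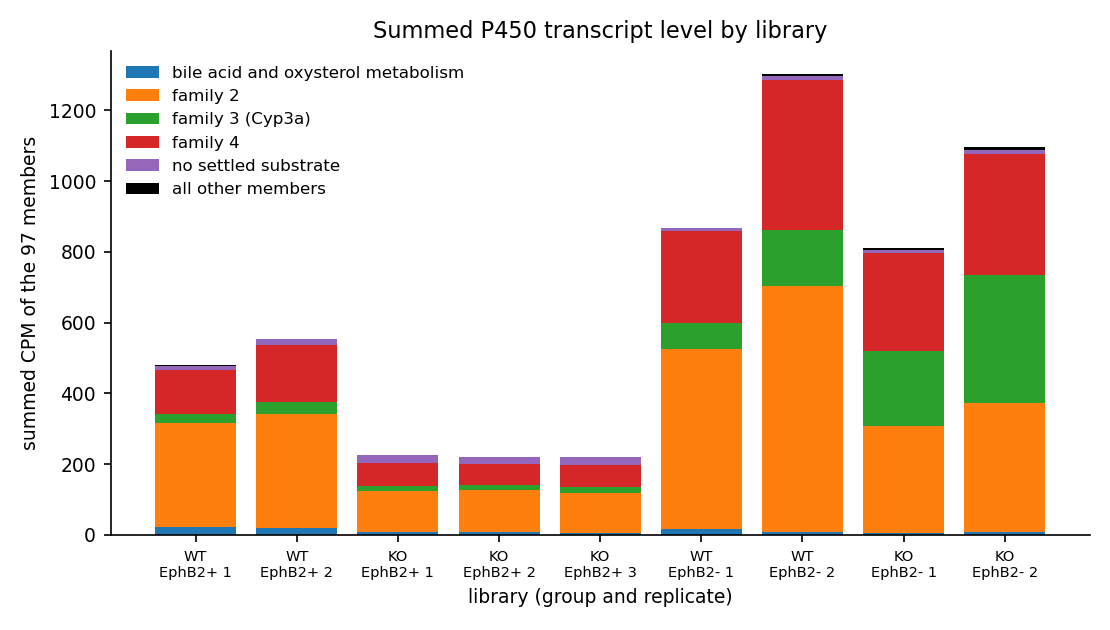
Summed P450 level in CPM in each of the 9 libraries (bars, in the 4 groups), split by role of the members. The KO EphB2-positive bars sit near 220 CPM, below every other library, and the share of family 3 is highest in the KO EphB2-negative libraries.

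Per kilobase of exon, Cyp2j6 had the highest mean level of the expressed members in WT EphB2-positive cells, at 40.3 CPM per kb, followed by Cyp2c68 at 18.7 and Cyp4f16 at 17.3. In WT EphB2-negative cells Cyp2j6 and Cyp4f16 stood at 76.1 and 68.9 CPM per kb. In KO EphB2-positive cells Cyp2j6 and Cyp2c65 led at 14.9 and 11.1 CPM per kb. In KO EphB2-negative cells Cyp3a13 led at 96.7 CPM per kb, before Cyp2j6 at 42.1, Cyp4f16 at 41.9 and Cyp4f14 at 33.0.

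Whole branches of the family were silent or nearly so. Of the aryl hydrocarbon receptor targets in family 1, Cyp1a1 and Cyp1b1 had 0 reads in each library and Cyp1a2 had 1. Of 47 members of family 2, which act on drugs and fatty acids, 30 had a read and 12 were expressed; Cyp2r1, a vitamin D hydroxylase, is counted with the vitamin D genes instead. Family 3, with 9 members, had 1 expressed gene, Cyp3a13. Family 4, which hydroxylates fatty acids and leukotrienes, had 8 of 18 expressed. Of 6 genes of bile acid and oxysterol metabolism, only Cyp39a1, an oxysterol hydroxylase, was expressed, and of 6 steroid hormone genes and 6 vitamin D and retinoic acid genes none was. Cyp24a1 and Cyp26a1, which break down vitamin D hormone and retinoic acid, had 0 reads. Cyp20a1, an orphan enzyme with no settled substrate, was expressed. The last member, Cyp4x1os, is an antisense transcript with 1 read.

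**Figure D2:**
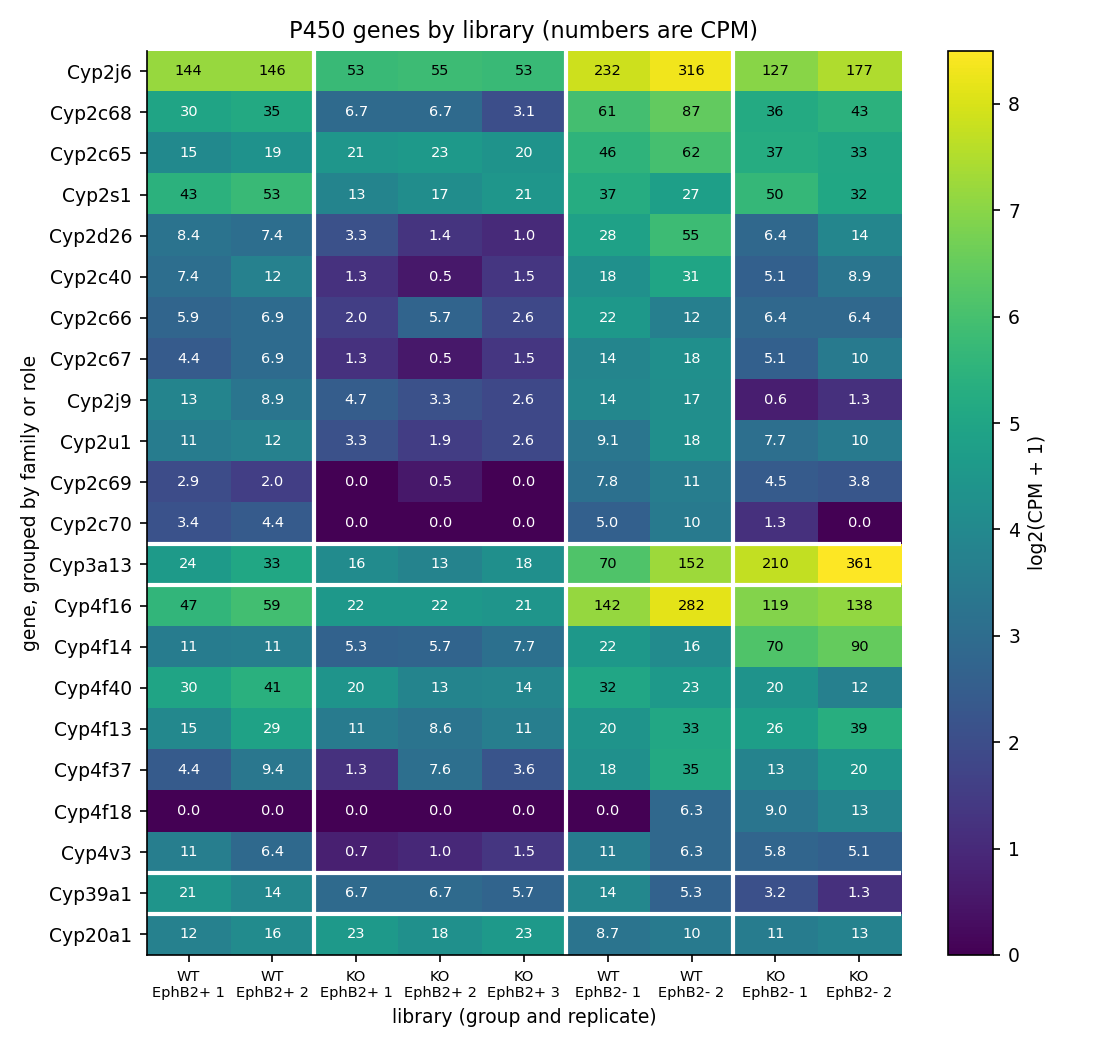
Level of 22 of the 23 expressed members (vertical axis) in each of the 9 libraries (columns, by group), with colour for log2(CPM + 1) and CPM printed in each field; Cyp4b1, expressed but under 10 CPM and never called, is not drawn. Most members have their lowest mean in the KO EphB2-positive libraries. Cyp39a1 and Cyp2j9 are lowest in KO EphB2-negative, Cyp2c65 in WT EphB2-positive and Cyp20a1 in WT EphB2-negative libraries, Cyp4f40 is about equal in both KO groups, and Cyp4f18 has 0 reads in both EphB2-positive groups.

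The first comparison set KO against WT in EphB2-positive cells. P450 genes fell: 13 of the 23 expressed members were lower in KO, 0 were higher and 10 did not pass. Those that fell include Cyp2j6, Cyp2s1, 5 genes of the Cyp2c group and 3 of family 4. Cyp2c69 and Cyp2c70 reached 10 reads, the minimum count of the filter, only in WT EphB2-negative libraries. Cyp2j9 and Cyp4v3 reached it only in WT libraries. Among KO libraries, Cyp2c40 and Cyp2c67 reached it in EphB2-negative replicate 2 alone. These members thus passed the filter through WT libraries, where they were high, so their falls in KO in either sort are not independent of it. Over all 11577 genes tested, 8.07% fell and 7.01% rose, 15.1% in all, so the members' share of 56.5% lay above the background. That share counts Cyp2c40, Cyp2c67, Cyp2c68 and Cyp2c69 as separate genes, though they are near copies whose reads may be divided among them. Members had a median log2 fold change of -1.43, against -0.01 over all genes. The median was -1.44 with Cyp4f18, which had 0 reads in both groups, left out and Cyp2c70 placed at its bound. Libraries of the groups did not overlap for 19 members that were lower and 2 that were higher in KO, against 28.6% and 26.9% of all genes. The count was 13 with all libraries, and 4 or 3 without WT EphB2-positive replicate 1 or 2. It was 5 without KO EphB2-positive replicate 2, 6 without replicate 3, 6 with a block on replicate number and 8 with DESeq2. Cyp2j6 and Cyp2c68 kept their call under each alternative in which they were tested. Cyp2c40 and Cyp2s1 lost it without WT EphB2-positive replicate 2 (adjusted p = 0.063 and 0.074) and Cyp4v3 without replicate 1 (adjusted p = 0.097), and under no other alternative. Cyp2u1 lost it without either WT library or KO replicate 2 and with a block on replicate number (adjusted p up to 0.082). The other 7 lost it without each WT library and at least 1 KO library (adjusted p up to 0.22).

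Cyp2j6 (chr4:96516138-96553661, minus strand, GRCm38) stood at 144 and 146 CPM in the WT and at 53.4, 55.2 and 53.0 CPM in the KO EphB2-positive libraries. Its replicates lay close together and the groups were far from overlapping. Its log2 fold change was -1.43 ± 0.18 (SE), with an adjusted p = 0.0012 by edgeR's quasi-likelihood test with Benjamini-Hochberg adjustment. Its neighbour Cyp2j9 stood at 13.3 and 8.88 CPM in WT and at 4.67, 3.33 and 2.57 CPM in KO (log2 fold change -1.66 ± 0.42, adjusted p = 0.027). Cyp2s1, which oxidizes retinoids and prostaglandin endoperoxides, stood at 42.7 and 53.3 CPM in WT and at 13.3, 17.1 and 21.1 CPM in KO (log2 fold change -1.47 ± 0.27, adjusted p = 0.0062). For both genes all KO libraries lay below both WT libraries. Cyp2u1, a hydroxylase of long-chain fatty acids, fell from 11.6 ± 1.08 CPM (SD, n = 2) to 2.604 ± 0.717 CPM (n = 3), with adjusted p = 0.012 by edgeR.

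Within the Cyp2c group, whose enzymes act on drugs and on arachidonic acid, 5 members fell and 2 did not pass. Cyp2c40, Cyp2c67, Cyp2c68 and Cyp2c69 lie on the minus strand between chr19:39608842-39886799, and from 43.3% (Cyp2c68) to 60.3% (Cyp2c40) of the 50-base words in their transcripts also occur in other genes. Counting could therefore split or drop reads between them, and the level of any single copy is uncertain. The 250 bases upstream of their RefSeq starts are shown because these 4 copies all fell in KO EphB2-positive cells and were lowest there. Sequences are from RefSeq on GRCm38.p6, 5′ to 3′ on the minus strand. Capitals mark ATTAAC, the reverse complement of GTTAAT, part of the site of the enterocyte and liver factor HNF1. The windows are chr19:39812815-39813064 for Cyp2c40, chr19:39649043-39649292 for Cyp2c67, chr19:39741102-39741351 for Cyp2c68 and chr19:39886770-39887019 for Cyp2c69.
Cyp2c40: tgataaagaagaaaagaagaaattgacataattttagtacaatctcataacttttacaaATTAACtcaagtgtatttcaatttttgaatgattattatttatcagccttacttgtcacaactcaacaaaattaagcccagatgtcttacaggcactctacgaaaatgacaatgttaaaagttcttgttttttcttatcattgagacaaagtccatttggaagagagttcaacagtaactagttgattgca
Cyp2c67: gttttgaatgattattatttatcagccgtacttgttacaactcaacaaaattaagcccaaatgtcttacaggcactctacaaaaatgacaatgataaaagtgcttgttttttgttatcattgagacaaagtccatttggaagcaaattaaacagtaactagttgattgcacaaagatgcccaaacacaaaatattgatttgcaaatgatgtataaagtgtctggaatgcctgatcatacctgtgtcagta
Cyp2c68: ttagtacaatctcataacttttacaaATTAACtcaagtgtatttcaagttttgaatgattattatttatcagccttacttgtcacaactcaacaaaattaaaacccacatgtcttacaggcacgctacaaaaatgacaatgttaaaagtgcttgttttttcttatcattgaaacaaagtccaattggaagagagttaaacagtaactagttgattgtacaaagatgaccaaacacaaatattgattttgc
Cyp2c69: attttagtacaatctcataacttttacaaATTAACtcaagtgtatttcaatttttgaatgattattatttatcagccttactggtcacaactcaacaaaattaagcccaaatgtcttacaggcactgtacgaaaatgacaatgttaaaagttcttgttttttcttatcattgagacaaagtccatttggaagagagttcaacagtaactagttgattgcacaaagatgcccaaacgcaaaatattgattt

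The HNF1 letters were found in the windows of Cyp2c40, Cyp2c68 and Cyp2c69, at bases 60 to 65 of the first. The window of Cyp2c67 begins further along: its base 2 aligned to base 82 of the Cyp2c40 window, so the stretch that holds the letters in the other copies lies outside it and was not searched. Over the stretches that local alignment paired, Cyp2c40 was 98.6% identical to Cyp2c69 (220 aligned columns), 95% to Cyp2c68 (218 columns) and 93.5% to Cyp2c67 (169 columns). Against the Cyp3a13 and Cyp4f14 windows it was 51.4% and 49.6% identical. Of the 20 named members with a RefSeq window, 5 held GTTAAT on either strand, against 6.43% of 32851 windows of the same length over all genes. These were Cyp2c40, Cyp2c68, Cyp2c69, Cyp2d26 and Cyp4f40. The RefSeq starts can differ from the GENCODE starts, by 47 bases for Cyp2c68, 14 for Cyp4f40 and 388 for Cyp2s1. For Cyp2c65, Cyp2c68, Cyp4f40 and Cyp20a1 the bases checked after the RefSeq start were not in a GENCODE transcript of the gene. In the Cyp2c copies the letters lie in the stretch that the copies share, so those matches are not independent of each other. AGGTCA, the core bound by nuclear receptors, was in 1 of 20 against 14.0% of all windows. GCGTG, the core bound by the aryl hydrocarbon receptor, was in 5 of 20 against 28.2%. The kappa B motif, the site bound by NF-κB, was in 1 of 20, that of Cyp4f16, against 4.65%. Such matches are a description of the letters only.

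Of these copies, Cyp2c68 had the most reads, with 29.97 and 34.5 CPM in WT and 6.67, 6.67 and 3.08 CPM in KO EphB2-positive libraries. Its groups were far apart (log2 fold change -2.56 ± 0.31, adjusted p = 9.3e-04 by edgeR). Cyp2c40 stood at 7.37 and 12.3 CPM in WT and at 1.33, 0.476 and 1.54 CPM in KO (log2 fold change -3.10 ± 0.57, adjusted p = 0.0062). Cyp2c67 fell by 2.31 log2 units (adjusted p = 0.030). Cyp2c69 had 1 read over the KO libraries, which gives a ratio of 0.0733 with a counting interval of 0.00169 to 0.515 (adjusted p = 0.045). Counted as 1 feature, the 4 copies stood at 44.7 and 55.8 CPM in WT and at 9.34, 8.09 and 6.17 CPM in KO (log2 fold change -2.68 ± 0.27, adjusted p = 3.4e-04). That sum, added after seeing the data, does not depend on how reads were divided among the copies.

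Cyp2c70, further along the cluster and a bile acid hydroxylase in mice, had 3.44 and 4.44 CPM in WT and 0 reads in each KO EphB2-positive library. It was at least 7.28-fold lower (adjusted p = 0.030). Cyp2c65 lay the other way, at 15.2 and 19.2 CPM in WT and 21.4, 23.3 and 19.5 CPM in KO. Its groups did not overlap, but the difference did not pass (log2 fold change 0.31, adjusted p = 0.41). Cyp2c66 stood at 5.89 and 6.91 CPM in WT and at 2.00, 5.71 and 2.57 CPM in KO and did not pass either (adjusted p = 0.32). Cyp2d26, of a subfamily that oxidizes basic drugs, fell from 7.88 ± 0.672 to 1.93 ± 1.23 CPM (adjusted p = 0.042).

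In family 4, Cyp4f16 (chr17:32536558-32551798, plus strand) stood at 47.2 and 59.2 CPM in WT and at 22.0, 21.9 and 20.6 CPM in KO EphB2-positive libraries. The groups were well separated (log2 fold change -1.31 ± 0.29, adjusted p = 0.016 by edgeR). Cyp4f40 stood at 30.5 and 41.4 CPM in WT and at 20.0, 13.3 and 13.9 CPM in KO (log2 fold change -1.20 ± 0.29, adjusted p = 0.022). Cyp4v3, a fatty acid hydroxylase whose human counterpart is mutated in a crystalline corneoretinal dystrophy, stood at 11.3 and 6.41 CPM in WT and at 0.667, 0.952 and 1.54 CPM in KO. Its log2 fold change was -2.96 ± 0.58 (adjusted p = 0.0083). The other tested members of the family did not pass: Cyp4f13 had an adjusted p = 0.072, Cyp4f14 0.099, Cyp4f37 0.55 and Cyp4b1 0.51, and Cyp4f18 had 0 reads in all 5 EphB2-positive libraries.

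Outside these families, Cyp39a1 stood at 20.6 and 14.3 CPM in WT and at 6.67, 6.67 and 5.66 CPM in KO EphB2-positive libraries without passing (adjusted p = 0.060). Cyp3a13 stood at 24.1 and 32.6 CPM in WT and at 16.0, 12.9 and 18.0 CPM in KO (adjusted p = 0.21). Cyp20a1 was on the higher side in KO, at 12.3 and 16.3 CPM in WT and 23.4, 18.1 and 23.1 CPM in KO (log2 fold change 0.59, adjusted p = 0.19). For each of these 3 genes the groups did not overlap, yet the difference did not pass.

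Markers of absorptive enterocytes moved with the P450 genes in this comparison. Of 14 tested, 7 fell and 0 rose, and they summed to 1779 and 3435 CPM in WT and 1042, 961 and 819 CPM in KO EphB2-positive libraries. Of 9 hepatocyte markers, included because many of these genes are known from liver, 4 were tested, 1 rose and 1 fell. Their sum was 37.3 and 46.4 CPM in WT and 14.7, 17.6 and 19.0 CPM in KO, and Alb, which encodes albumin, had 1 and 0 reads in WT and 0 in each KO library. Of 10 enteroendocrine markers 3 fell and 0 rose, with sums of 1064 and 673 CPM in WT and 479, 378 and 361 CPM in KO. The 10 crypt stem cell markers summed to 5196 and 4753 CPM in WT and 2824, 2507 and 3618 CPM in KO, with 0 called. The 11 epithelial markers summed to 9751 and 10770 CPM in WT and 7333, 6882 and 7632 CPM in KO, with 1 called down. The 8 goblet cell markers overlapped between genotypes, at 2186 and 1746 CPM in WT and 3226, 2130 and 4012 CPM in KO. Pan-leukocyte sums were higher in KO with 0 called, and of 12 macrophage and dendritic cell markers 1 rose. The part of these cells in the P450 result was not tested.

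**Figure D3:**
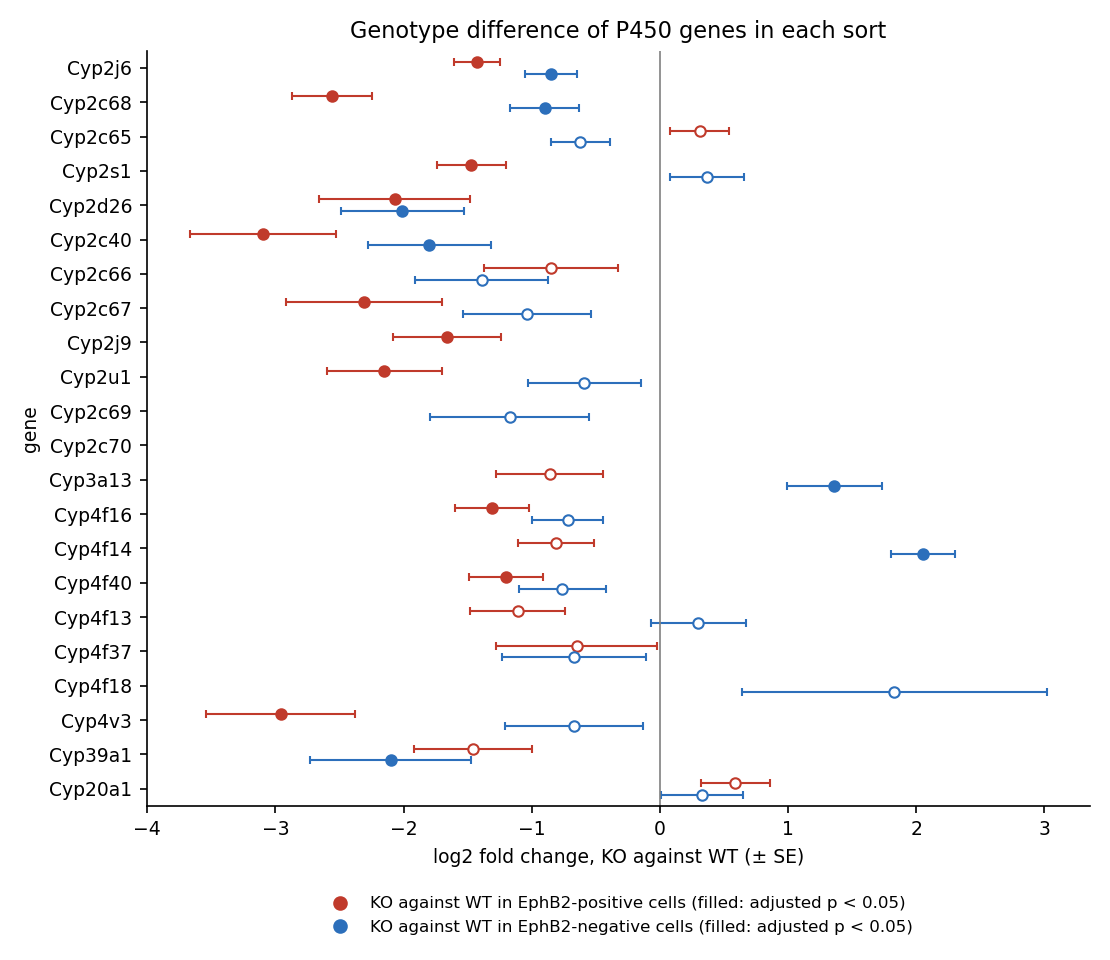
Log2 fold change of KO against WT (horizontal axis, ± SE) for 22 of the expressed members, in EphB2-positive (red) and EphB2-negative (blue) cells, with filled points for an adjusted p under 0.05 and open points otherwise. Members with 3 reads or fewer in a group, such as Cyp2c70, have no point there. All filled red points lie below 0, and the filled blue points above 0 are Cyp3a13 and Cyp4f14.

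The second comparison set KO against WT in EphB2-negative cells. Here 2 members rose, 7 fell and 14 did not pass. Cyp3a13 and Cyp4f14 rose, while Cyp2j6, Cyp2j9, Cyp2c40, Cyp2c68, Cyp2c70, Cyp2d26 and Cyp39a1 fell. Over all genes 29.9% were called, 13.7% up and 16.2% down, so the members' share of 39.1% lay closer to the background than in EphB2-positive cells. The median was -0.72 against -0.09 over all genes. Groups did not overlap for 14 members that were lower and 4 that were higher in KO, against 34.6% and 28.7% of all genes. The count fell to 3 or 4 without KO EphB2-negative replicate 1 or 2 and to 5 with DESeq2. With the 4 libraries compared fitted alone edgeR called 0, while 2 were higher and 8 lower at an unadjusted p under 0.05. The count was 13 without WT EphB2-negative replicate 1 and also 13 without replicate 2.

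Cyp3a13 (chr5:137892932-137921619, minus strand) stood at 70.3 and 152 CPM in WT and at 210.5 and 361 CPM in KO EphB2-negative libraries. The WT replicates differed widely, yet both lay below both KO libraries (log2 fold change 1.36 ± 0.37, adjusted p = 0.024 by edgeR). The call was lost without KO EphB2-negative replicate 2 (adjusted p = 0.16). Cyp4f14 (chr17:32905070-32917342, minus strand), which hydroxylates leukotriene B4 and other eicosanoids, stood at 22.4 and 16.0 CPM in WT and at 69.7 and 89.8 CPM in KO. It rose by 2.05 ± 0.25 on the log2 scale (adjusted p = 7.7e-04). It missed the threshold when the compared libraries were fitted alone, with adjusted p = 0.051.

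Of those that fell, Cyp2j6 stood at 232 and 316 CPM in WT and 127 and 177 CPM in KO EphB2-negative libraries (log2 fold change -0.85 ± 0.20, adjusted p = 0.012). Cyp2j9 stood at 14.2 and 17.4 CPM in WT and had 3 reads over the KO libraries, a ratio of 0.0608 with a counting interval of 0.0122 to 0.186 (adjusted p = 0.0018). Cyp2d26 stood at 27.9 and 55.2 CPM in WT and at 6.398 and 14.0 CPM in KO (log2 fold change -2.01 ± 0.48, adjusted p = 0.014). For each of the 3 genes every KO library lay below both WT libraries. Without KO EphB2-negative replicate 1 the calls of Cyp2j6 and Cyp2d26 were lost (adjusted p = 0.082 and 0.09).

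Cyp2c40 stood at 18.3 and 31.0 CPM in WT and at 5.12 and 8.91 CPM in KO EphB2-negative libraries (log2 fold change -1.80 ± 0.48, adjusted p = 0.021). Cyp2c68 stood at 61.2 and 87.1 CPM in WT and at 35.8 and 43.3 CPM in KO (log2 fold change -0.90 ± 0.27, adjusted p = 0.032). The 4 copies as 1 feature stood at 100.9 and 147 CPM in WT and 50.6 and 66.2 CPM in KO (log2 fold change -1.08 ± 0.24, adjusted p = 0.0099). Cyp2c70 had 2 reads over the KO libraries, a ratio of 0.0849 with a counting interval of 0.00986 to 0.333 (adjusted p = 0.044). It passed the filter only through the WT EphB2-negative libraries, the higher group here, so its call is not independent of the filter. Cyp39a1 stood at 14.2 and 5.32 CPM in WT and at 3.20 and 1.27 CPM in KO (log2 fold change -2.10 ± 0.63, adjusted p = 0.032). The calls of Cyp2c70 and Cyp39a1 were lost under 11 and 10 of 16 alternatives. Those of Cyp2c40 and Cyp2c68 were lost with DESeq2 and without either KO EphB2-negative library (adjusted p up to 0.13 and 0.16), and that of Cyp2c68 also without either WT EphB2-positive library.

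The other 14 members did not pass here, some of them members that fell in EphB2-positive cells. Cyp4f16 stood at 142 and 282 CPM in WT and at 119 and 138 CPM in KO EphB2-negative libraries (adjusted p = 0.076), and Cyp2s1 at 37.0 and 26.6 CPM in WT and 49.9 and 32.5 CPM in KO (adjusted p = 0.35). Cyp2c65 stood at 45.6 and 62.4 CPM in WT and 37.1 and 33.1 CPM in KO (adjusted p = 0.064). Cyp2s1 overlapped between genotypes, and the other two were lower in both KO libraries without passing. Cyp2c66 stood at 21.9 and 11.6 CPM in WT and 6.398 and 6.37 CPM in KO (adjusted p = 0.069), and Cyp4f40 at 31.5 and 22.8 CPM in WT and 19.8 and 12.1 CPM in KO (adjusted p = 0.11). Cyp4f13 stood at 20.1 and 32.9 CPM in WT and 26.2 and 38.8 CPM in KO (adjusted p = 0.57), and Cyp4f37 at 18.3 and 34.8 CPM in WT and 12.8 and 20.4 CPM in KO (adjusted p = 0.38). The KO libraries lay below both WT libraries for Cyp2c66 and Cyp4f40, and the genotypes overlapped for the other pair.

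Levels of markers of other cells differed between the libraries of this sort. The 11 pan-leukocyte markers summed to 132 and 1144 CPM in WT and 1675 and 1335 CPM in KO EphB2-negative libraries, with 0 of 11 called, and Ptprc, which encodes CD45, had 17 and 346 reads in WT and 220 and 180 in KO. The 14 absorptive enterocyte markers summed to 12240 and 30030 CPM in WT and 25880 and 37660 CPM in KO, with 1 called up. The 10 crypt stem cell markers summed to 2448 and 617 CPM in WT and 198 and 282 CPM in KO, with 6 called down. Of 4 neutrophil markers 2 rose, of 12 macrophage and dendritic cell markers 2 rose, and of 11 epithelial markers 3 rose, with none called down. Of 10 enteroendocrine markers 3 fell, with sums of 2590 and 5587 CPM in WT and 2069 and 1463 CPM in KO. Of 4 hepatocyte markers 1 rose and 2 fell, and Alb had 3 and 8 reads in WT and 0 in both KO libraries. The part of these cells in the P450 values was not tested.

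**Figure D4:**
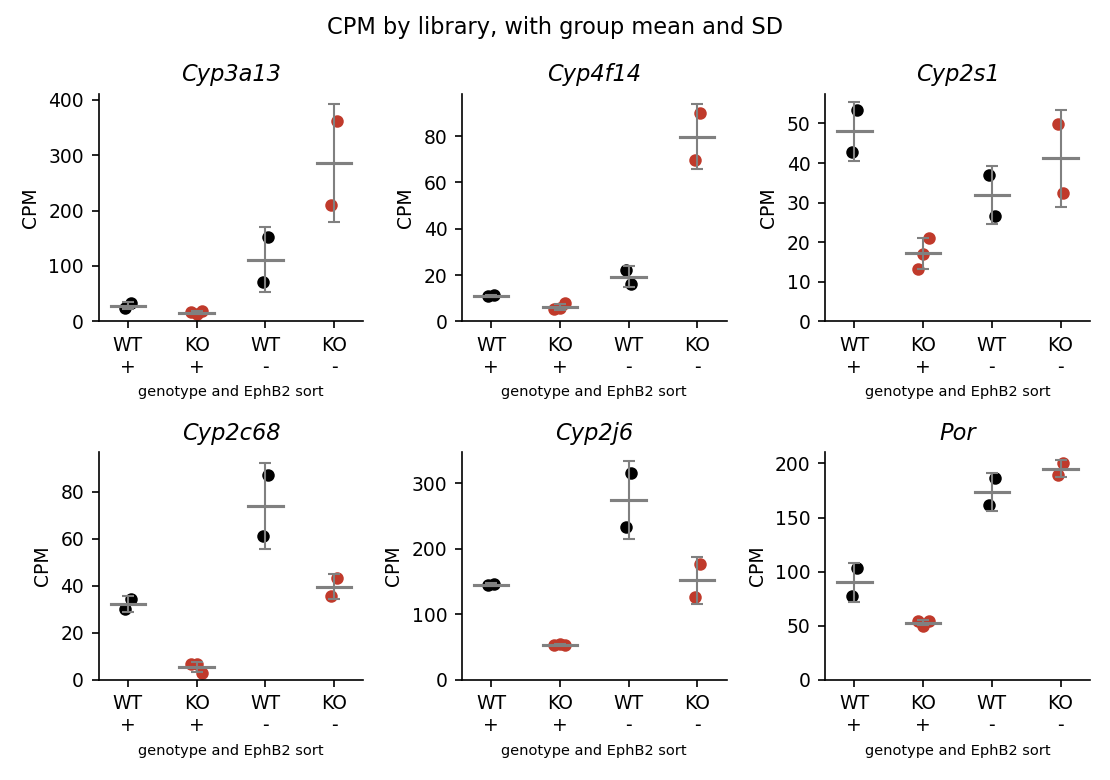
CPM in each library (points, black for WT and red for KO) of Cyp3a13, Cyp4f14, Cyp2s1, Cyp2c68, Cyp2j6 and the electron donor Por, with group mean (line) and SD (bar), where + and - on the horizontal axis are the EphB2 sorts. Cyp2j6 and Cyp2c68 are lower in KO than in WT in both sorts, while Cyp3a13 and Cyp4f14 are highest in the KO EphB2-negative libraries.

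Whether the genotype effect differed between sorts was tested directly. It passed for 4 of the 23 members, each with a more negative effect in EphB2-positive cells, against 12.4% of all genes called, 5.81% in that direction and 6.54% in the other. The members' share of 17.4% thus lay near the background. Cyp4f14 had a log2 fold change of -0.81 ± 0.30 in EphB2-positive and 2.05 ± 0.25 in EphB2-negative cells, a difference of -2.86 ± 0.39 (adjusted p = 0.0074). Cyp3a13 had -0.86 ± 0.42 and 1.36 ± 0.37, a difference of -2.22 ± 0.55 (adjusted p = 0.036). Cyp2s1 had -1.47 ± 0.27 and 0.37 ± 0.29, a difference of -1.84 ± 0.39 (adjusted p = 0.020). Cyp2c68 had -2.56 ± 0.31 and -0.90 ± 0.27, a difference of -1.65 ± 0.42 (adjusted p = 0.033). The genotype effect on Cyp2j6 was not shown to differ (difference -0.58 ± 0.27, adjusted p = 0.18), nor was that on Cyp2d26 (adjusted p = 0.97). DESeq2 also called 4. The edgeR count was 0 without WT EphB2-positive replicate 2 or KO EphB2-negative replicate 2, with 2 members positive and 5 negative at an unadjusted p under 0.05 in each of these fits. It was 1 without WT EphB2-positive replicate 1, KO EphB2-positive replicate 1 or 2, and 2 without KO EphB2-positive replicate 3 or KO EphB2-negative replicate 1. It was 8 without WT EphB2-negative replicate 2.

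The sorts were also compared within each genotype. These comparisons use the libraries already described, so they are not further evidence on the genotype. In KO, 16 members fell in EphB2-positive against EphB2-negative cells, 2 rose and 5 did not pass, a share of 78.3% called against 55.5% of all genes (29.2% down and 26.4% up). The median was -1.91, against -0.02 over all genes. It was -1.84 with Cyp2c70, which had 0 and 2 reads in the KO EphB2-positive and EphB2-negative groups, left out and Cyp4f18 placed at its bound. In WT, 6 fell, 0 rose and 17 did not pass, 26.1% against 4.43% of all genes (3.77% down and 0.656% up), with a median of -1.12 against -0.02. Libraries did not overlap for 15 members that were lower and 3 that were higher in WT EphB2-positive cells, against 28% and 26.5% of all genes, and for 18 and 3 in KO, against 39.5% and 37.7%. In WT edgeR called 0 without WT EphB2-positive replicate 1 or 2 and 0 with the WT libraries fitted alone, with 7, 9 and 11 members lower at an unadjusted p under 0.05, while DESeq2 called 6 with all libraries. The edgeR count in WT was 2 without any one of the KO EphB2-positive libraries and 16 without WT EphB2-negative replicate 1. In WT EphB2-positive against EphB2-negative cells, 8 of 14 absorptive enterocyte markers fell, as did 5 of 10 enteroendocrine (2 rose) and 5 of 6 mast cell markers, and their part in the WT count was not tested. In KO the P450 count was 10 without KO EphB2-negative replicate 2, and 24 of 30 members then tested without WT EphB2-negative replicate 1.

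In KO, the largest sort effects among members with more than 3 reads in both sorts were those of Cyp3a13 and Cyp4f14. Cyp3a13 fell by 4.19 on the log2 scale in KO EphB2-positive against EphB2-negative cells (SE 0.38, adjusted p = 7.2e-05) and by 1.97 in WT (SE 0.40, adjusted p = 0.037). Cyp4f14 fell by 3.65 in KO (SE 0.25, adjusted p = 2.1e-05), while in WT its log2 fold change of -0.79 ± 0.28 did not pass (adjusted p = 0.11). Cyp4f16 fell by 2.58 in KO (adjusted p = 1.1e-04) and by 1.99 in WT (adjusted p = 0.017). The 4 clustered Cyp2c copies as 1 feature fell by 2.90 in KO (adjusted p = 5.4e-05) and by 1.30 in WT (adjusted p = 0.026). Cyp2j6 fell by 1.49 in KO (adjusted p = 1.9e-04) and by 0.92 in WT (adjusted p = 0.037). Cyp2c65 fell by 1.64 (adjusted p = 0.017), Cyp2d26 by 2.39 (adjusted p = 0.033) and Cyp2c68 by 1.20 (adjusted p = 0.040) in WT, which with Cyp3a13, Cyp4f16 and Cyp2j6 makes the 6 called there. The KO calls of Cyp3a13, Cyp4f14, Cyp4f16 and Cyp2j6 held under each alternative run, and no call in WT held without either WT EphB2-positive library.

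Other members also fell in KO EphB2-positive against EphB2-negative cells. Cyp4f13 fell by 1.68 (SE 0.36, adjusted p = 0.0034) and Cyp2c67 by 2.74 (SE 0.60, adjusted p = 0.0037), and both calls held under each alternative run. Cyp2c40 fell by 2.62 (adjusted p = 0.0050), Cyp2d26 by 2.44 (adjusted p = 0.0061) and Cyp2u1 by 1.78 (adjusted p = 0.0099). These 3 calls were lost without KO EphB2-negative replicate 2 (adjusted p = 0.052, 0.084 and 0.073). Cyp2s1 fell by 1.24 (adjusted p = 0.0039) and Cyp4v3 by 2.26 (adjusted p = 0.012), and without KO EphB2-negative replicate 1 neither passed (adjusted p = 0.060 and 0.057). Cyp4f37 fell by 1.91 (adjusted p = 0.020) but not without KO EphB2-positive replicate 1 or 3 or KO EphB2-negative replicate 2 (adjusted p up to 0.15), and Cyp2c65 fell by 0.71 (adjusted p = 0.020), a call lost without KO EphB2-positive replicate 3, without either KO EphB2-negative library and with DESeq2 (adjusted p up to 0.12).

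A pair of members rose in KO EphB2-positive cells against KO EphB2-negative cells. Cyp20a1 rose by 0.86 ± 0.29 on the log2 scale (adjusted p = 0.027), from 10.9 and 12.7 to 23.4, 18.1 and 23.1 CPM. Cyp2j9 had a ratio of 3.58 with a counting interval of 1.05 to 18.9 (adjusted p = 0.038), since it had 3 reads in KO EphB2-negative cells. Their calls were lost under 7 of 17 and 8 of 16 alternatives, among them leaving out either KO EphB2-negative library. Cyp4f18, a leukotriene B4 hydroxylase of neutrophils and other myeloid cells, had 0 reads in EphB2-positive cells and was at least 20.6-fold lower there in KO (adjusted p = 0.017), a call lost with DESeq2 and without either KO EphB2-negative library (adjusted p up to 0.19). All its reads lay in EphB2-negative libraries, so it passed the filter only through them. Its call, among the 16 that fell, is therefore not independent of the filter. Cyp4f18 stood at 0 and 6.29 CPM in the WT and 8.96 and 13.4 CPM in the KO EphB2-negative libraries. Neutrophil markers summed to 13.7 and 35.8 CPM in those WT and 94.1 and 463 CPM in those KO libraries, and to 4.63 to 9.52 CPM in EphB2-positive libraries. All 11 pan-leukocyte markers and all 14 absorptive enterocyte markers fell in KO EphB2-positive against EphB2-negative cells. Their part in these values was not tested.

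P450 enzymes need an electron donor, and the partner genes that passed moved in both directions. Of 11 tested donors and partners, 3 fell and 1 rose with KO in EphB2-positive cells, and 2 rose and 0 fell in EphB2-negative cells. Over all genes 15.1% and 29.9% were called, so the partners' share lay above the background in the first sort and below it in the second. The first count includes Cyb5a, which fell, and Cyb5b, which rose, calls lost under 10 and 6 of 16 alternatives. Cyb5b also rose in EphB2-negative cells, a call lost under 8 of 16. Por, the P450 oxidoreductase, stood at 77.6 and 103 CPM in WT and at 54.1, 50 and 54.5 CPM in KO EphB2-positive libraries (log2 fold change -0.77 ± 0.16, adjusted p = 0.011). The call was lost without WT EphB2-positive replicate 2 and without KO EphB2-positive replicate 2 (adjusted p up to 0.13). In EphB2-negative libraries Por stood at 162 and 186 CPM in WT and 189 and 201 CPM in KO (adjusted p = 0.48), and the genotype effects differed (-0.94 ± 0.23, adjusted p = 0.031), a call lost under 8 of 16 alternatives. Cyb5r3, a cytochrome b5 reductase, fell by 0.69 in EphB2-positive cells (SE 0.13, adjusted p = 0.0077) and rose by 0.73 ± 0.14 in EphB2-negative cells (adjusted p = 0.0060). The first call was lost without WT EphB2-positive replicate 1 (adjusted p = 0.089) and the second with the 4 EphB2-negative libraries fitted alone (adjusted p = 0.11). Of 9 tested genes of heme synthesis, 1 rose and 1 fell in each sort, which is near the background in both. Alas1, its rate-limiting enzyme, rose by 0.92 ± 0.19 in KO EphB2-negative cells (adjusted p = 0.0066), a call lost without KO EphB2-negative replicate 1 and with the EphB2-negative libraries fitted alone (adjusted p up to 0.10).

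Of 26 tested receptors and factors known to control P450 genes, 8 fell and 1 rose in KO EphB2-positive cells, and 3 fell and 3 rose in KO EphB2-negative cells. Against the same background shares, the first count was higher and the second lower, so the second shows nothing particular to these genes. The xenobiotic receptor CAR, from Nr1i3, stood at 11.8 and 14.3 CPM in WT and at 0.667, 0.952 and 2.06 CPM in KO EphB2-positive libraries. It fell by 3.31 on the log2 scale (SE 0.45, adjusted p = 0.0015), and the groups were far apart. In EphB2-negative libraries it stood at 20.5 and 28.1 CPM in WT and at 23.0 and 33.8 CPM in KO (adjusted p = 0.64), where the groups overlapped. The genotype effects on Nr1i3 differed between the sorts (-3.53 ± 0.57, adjusted p = 0.010), though not with DESeq2 and not without WT EphB2-positive replicate 2 or KO EphB2-negative replicate 2 (adjusted p up to 0.062). Its sister receptor PXR, from Nr1i2, stood at 82.0 and 90.8 CPM in WT and at 74.1, 67.1 and 63.2 CPM in KO EphB2-positive libraries without passing (adjusted p = 0.15). Rxra, the shared partner of these receptors, fell by 0.96 (SE 0.16, adjusted p = 0.0037) and Ppara, the fatty acid receptor PPARα, by 1.86 (SE 0.37, adjusted p = 0.0092). Both calls were lost without WT EphB2-positive replicate 2 (adjusted p = 0.052 and 0.11). Ppard, which encodes PPARδ, rose in both sorts, by 1.11 ± 0.23 (adjusted p = 0.011) in EphB2-positive and 1.88 ± 0.24 (adjusted p = 9.6e-04) in EphB2-negative cells, the former not without either WT EphB2-positive library (adjusted p up to 0.11) and the latter not with the EphB2-negative libraries fitted alone (adjusted p = 0.061). Ahr, the aryl hydrocarbon receptor, did not pass in EphB2-positive cells (log2 fold change 0.11, adjusted p = 0.87), where family 1 was nearly silent in all libraries.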

How the data were processed

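Per the labels, RNA of sorted cells was copied into cDNA, amplified by PCR without stated molecular identifiers, sheared and sequenced on an Illumina HiSeq. The deposited tables hold whole-number read counts per gene symbol, 1 table a library. The submitters' processing notes name CASAVA 1.4, FastQC, Bowtie2, HTSeq, DESeq2 and mm10. Not given in the sources used here are annotation, strand setting and other versions. Summary lines that name no gene stayed out of sums and tests: 9.97 to 14.7% of reads lay in no feature and 1.89 to 2.28% were ambiguous, as shares of all reads on those lines and in genes.

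Counts were used as deposited. All 9 libraries, grouped by title, were fitted together with edgeR 4.0.16 (limma 3.58.1) in R 4.3.3: filterByExpr by group (minimum count 10) kept 11577 genes, TMM set the scaling, and the robust quasi-likelihood F test (two-sided) left 5 residual degrees of freedom. A gene is called at a Benjamini-Hochberg adjusted p under 0.05, adjusted across the whole table, and rose and fell refer to called genes alone. SE was derived as log2 fold change divided by the root of F. Where a group had 0 reads the fold is a bound against 3 reads over that group, and 1 to 3 reads give a ratio with an exact 95% interval. The workflow was tested on simulated data.

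Named members had a group mean of at least 10 CPM or were called in any comparison, 22 in all. Members and lists were chosen with earlier results of these data known, so no list is independent support. Positions and exon lengths are from GENCODE M21 (GRCm38), where 95 of 97 members matched. Alternatives were DESeq2 1.42.0, its size factors, 2 filters, the compared libraries alone, blocks on replicate number and file code, leaving out each library and, added after seeing the data, 4 Cyp2c copies as 1 feature.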

Additional observations from a re-analysis of the deposited data

Results flagged for a closer look

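A test of the difference itself singled out 4 P450 genes whose genotype effect was not the same in the EphB2-positive and EphB2-negative sorts. They are 17.4% of the 23 members tested, near the 12.4% called over all genes. The difference (effect in EphB2-positive minus effect in EphB2-negative cells, log2) was -2.86 ± 0.39 for Cyp4f14, -2.22 ± 0.55 for Cyp3a13, -1.84 ± 0.39 for Cyp2s1 and -1.65 ± 0.42 for Cyp2c68. In edgeR's quasi-likelihood test the adjusted p was 0.0074, 0.036, 0.020 and 0.033. Cyp4f14 and Cyp3a13 stood lower in KO than in WT EphB2-positive libraries without passing and rose in KO EphB2-negative cells. Cyp2s1 fell in EphB2-positive cells and overlapped between genotypes in EphB2-negative cells. Cyp2c68 fell in both sorts, by 2.56 and by 0.90. The call of Cyp4f14 was lost without WT EphB2-positive replicate 2 and without KO EphB2-negative replicate 2 (adjusted p up to 0.057). Those of Cyp3a13, Cyp2s1 and Cyp2c68 were lost under 6, 6 and 7 of the settings that leave out 1 library, with adjusted p up to 0.14, 0.11 and 0.14, and none changed direction. No group had the 4 libraries that a check for single outlying libraries needs.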

How the results depend on the processing

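Of 50 gene and comparison pairs called, none changed direction in 804 values under alternatives, 627 stayed past the threshold and 177 did not. Depth limits the low members: 3 reads are 1.37 to 2 CPM in a library. The count of expressed members, 23, was 61 for at least 1 read and 40 for a group mean of at least 1 CPM. DESeq2 called 8 members (against 13) for KO against WT in EphB2-positive and 5 (against 9) in EphB2-negative cells. Fitting the compared libraries alone with edgeR gave 0 for KO against WT in EphB2-negative cells (2 higher and 8 lower at an unadjusted p under 0.05) and 0 for the sort in WT (11 lower). Leaving out 1 library gave 3 to 15 members for KO against WT in EphB2-positive cells, 3 to 13 in EphB2-negative cells, 0 to 16 for the sort in WT, 10 to 24 for the sort in KO and 0 to 8 for the difference of the genotype effect. In the other alternatives, which changed the size factors, the filter or the Cyp2c features, counts stayed within 1.5 times.

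Same-numbered libraries of different groups had correlations of deviations from -0.07 to 0.13. In a group of 2 libraries the deviations mirror each other, so this check cannot tell whether the replicate numbers pair libraries. The 4 pairs with the same file code, whose meaning the labels do not give, had 0.07 to 0.13, and the WT pairs at 0.13 share both number and code. With a replicate block the counts were 6, 8, 7, 15 and 4 (KO against WT in EphB2-positive and EphB2-negative cells, the sort in WT and in KO, and the difference), against 13, 9, 6, 18 and 4. With the file code as a block they were 7, 16 and 4 for the last 3; its genotype effects cannot be estimated and were not run.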

Other observations

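Some members too low for the filter had reads almost wholly in 1 group. In a fit with no filter, chosen as an alternative, edgeR called 4 of them for KO against WT in EphB2-negative cells, where members enter through the group in which they are high. That is 4 of 38 low members with a read, against 1.41% of the 5937 features the filter leaves out. For the sort in KO it called 7 of 38, all lower in EphB2-positive cells, against 5.84%: Cyp2d12, Cyp2d22, Cyp2d34, Cyp4a12a, Cyp4a12b, Cyp4f17 and Cyp11a1. Within KO their reads lay mostly in EphB2-negative libraries, so these members again enter through the group in which they are high. The 5937 features were not matched to the 38 members for read number, so the shares are a description only. For KO against WT in EphB2-positive cells and the sort in WT edgeR called 0 of the 38, with 1 and 6 at an unadjusted p under 0.05, against 0.354% and 0.101% of those features called. Cyp4a12a, a fatty acid ω-hydroxylase, had 22 reads in KO and 1 in WT, a ratio of 29.9 with a counting interval of 4.83 to 1230 (adjusted p = 0.030). Its near copy Cyp4a12b, with which it shares 48.9% of its 50-base words, had 8 reads in KO EphB2-negative libraries and 0 in the other groups. Other members of the same subfamily had the opposite pattern: Cyp4a32 had 21 reads in WT and 0 in KO EphB2-negative cells, at least 5.16-fold lower (adjusted p = 0.038), and Cyp4a31 had 17 and 1. Cyp4a32 shares 43.8% of its 50-base words with other genes and Cyp4a31 20.6%, so the level of each single copy is uncertain. Cyp2d34 had 21 reads in KO and 0 in WT EphB2-negative cells, at least 9.5-fold higher (adjusted p = 0.012). Cyp2j13, a neighbour of Cyp2j6, had 28 reads in WT and 0 in KO EphB2-negative cells, at least 6.88-fold lower (adjusted p = 0.032), but 25 of the 28 were in WT replicate 2.

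Cyp11a1, which makes pregnenolone from cholesterol and is known in the gut from local glucocorticoid synthesis, had 16 reads in WT and 11 in KO EphB2-negative libraries, 1 in WT and 0 in KO EphB2-positive libraries. The 8 mast cell markers summed to 249 and 1383 CPM in the WT and 934 and 803 CPM in the KO EphB2-negative libraries, and to 8.68 to 22.6 CPM in EphB2-positive libraries. Their part in the Cyp11a1 reads was not tested. Cyp3a25 had 17 reads in WT and 3 in KO EphB2-negative libraries. Cyp27a1, the mitochondrial sterol 27-hydroxylase, had 15, 14, 9 and 12 reads in WT EphB2-positive, WT EphB2-negative, KO EphB2-positive and KO EphB2-negative libraries.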
